A study of Mus musculus with 12 samples.

Results

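The integrated stress response ends in a small set of genes that lie under the transcription factor ATF4, and 10 of them were followed here through RNA sequencing of mouse fibroblasts: Atf4, Atf5, Ddit3, Trib3, Chac1, Sesn2, Asns, Psat1, Phgdh and Mthfd2. Their rows were taken from the table by gene name. The names matched 11 of the 54447 rows of the count table, because Ddit3 has a second row (ENSMUSG00000116429) that had a count of 0 in every library. That row's 105 exon bases all lie within exons of the first Ddit3 gene, so a count of 0 there says nothing about a separate transcript. The other 10 rows had counts in all libraries and passed the filter on low counts, which 13608 genes passed.

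The cells were called mouse embryonic fibroblasts in the labels and NIH3T3, an established mouse fibroblast line, in the methods of the study. One population expressed N-VEGF, the N-terminal stretch of L-VEGF, a longer form of the growth factor VEGF, and the other NLS-N-VEGF, the same part behind the nuclear localization sequence of Cas9. Both sequences were His-tagged, stood under a Tet-on promoter in a lentiviral vector and were carried by infected, puromycin-selected cells, so the cells without doxycycline (dox) held the construct too. The 4 groups were NLS-N-VEGF fibroblasts without dox, NLS-N-VEGF fibroblasts with dox, N-VEGF fibroblasts without dox and N-VEGF fibroblasts with dox, with 3 libraries each. There was no population without a construct, so an effect of dox and an effect of the induced protein cannot be told apart within a population. In each group the libraries were numbered 1 and 2 with one suffix in their label, here called suffix a, and 2 with another, here called suffix b. They are called libraries a1, a2 and b2, and the labels do not say what the suffix means. Nothing in the labels says that the 3 libraries came from separate cultures, so p-values measure only the spread between these libraries.

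Total counts per library ranged from 13549331 to 18982127, and 3 counts corresponded to 0.158 to 0.221 counts per 1000000 counts of a library (CPM). Of 14 fibroblast markers 13 had a mean of at least 1 CPM, and of 15 markers of other cell types 3 did (Cd68, Cdh1 and Cdh5). The row of the construct insert ranged from 0.288 to 0.857 CPM without dox and from 2.57 to 17.9 CPM with dox, so every library with dox was above every library without it. With dox it was at 2.57, 2.58 and 10.2 CPM in NLS-N-VEGF fibroblasts, in the order a1, a2 and b2. In N-VEGF fibroblasts with dox it was at 7.56, 8.08 and 17.9 CPM, higher for each label. The part of this difference in comparisons of the populations with dox was not tested. Library a1 of the N-VEGF fibroblasts without dox stood apart from the other 11 on the second principal component, at 27.0 against a range of -12.3 to 9.34. Several results that rest on this library are given with and without it.

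In the integrated stress response, kinases that sense unfolded proteins, amino acid shortage, haem shortage or double-stranded RNA phosphorylate the translation factor eIF2. Bulk translation falls, while the Atf4 messenger RNA is translated more, and ATF4 then switches on genes of amino acid supply, redox balance and, under lasting stress, cell death. Much of the regulation of ATF4 is at the level of translation, which counts of Atf4 RNA do not show. The genes under ATF4 are therefore the readout in RNA data.

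ATF4 binds DNA as a dimer, often with C/EBP proteins, at the C/EBP-ATF response element, here searched as TGATGNAA on both strands. RefSeq promoters (build GRCm38.p6, 250 bases before to 50 bases after the start) were at hand for all 10 genes, 12 promoters in all. A match was present for Asns, Chac1 and Trib3, 3 of 10 genes, against 3.97% of 32851 promoters and 4.51% of 27025 genes. The match at Asns lay at positions -23 to -16 from the start, that at Chac1 at -193 to -186 on the other strand, and that at Trib3 at 15 to 22, after the start and also on the other strand. The cAMP response element TGACGTCA was in 0 of the 12 promoters, against 1.79% of all promoters, and the 2 motifs share no 8-base sequence. The 3 matches are shown in capitals because they place the ATF4-type sequence at Chac1 and Trib3, the genes that varied most between libraries, and at Asns, which varied little with the label suffix. Positions count from the RefSeq start. By the gene bounds of the count table, the match at Asns lies inside the gene and those at Chac1 and Trib3 lie before it. A match is a description of letters and not a bound site.
Asns (chr6:7693210-7693459, minus strand, 250 bases): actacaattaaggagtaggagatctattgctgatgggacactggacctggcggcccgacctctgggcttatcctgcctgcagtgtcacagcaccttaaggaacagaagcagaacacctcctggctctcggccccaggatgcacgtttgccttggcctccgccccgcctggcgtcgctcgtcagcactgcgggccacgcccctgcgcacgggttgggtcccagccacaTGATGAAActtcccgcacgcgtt
Chac1 (chr2:119350992-119351241, plus strand, 250 bases): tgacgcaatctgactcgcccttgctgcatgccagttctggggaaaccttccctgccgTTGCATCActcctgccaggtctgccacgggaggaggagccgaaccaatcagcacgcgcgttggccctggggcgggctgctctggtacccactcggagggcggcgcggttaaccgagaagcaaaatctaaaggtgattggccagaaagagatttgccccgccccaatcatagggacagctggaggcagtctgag
Trib3 (chr2:152344028-152344057, minus strand, 30 bases): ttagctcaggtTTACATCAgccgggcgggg

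Of 40 other ATF4 target genes listed for comparison, 28 had a promoter entry and 12 of these held the same motif.

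Per length of exon, the 10 genes covered a wide range of levels. Atf4 itself was the highest by this measure, at 225.9 ± 27.0 CPM per kb (SD, n = 12 libraries). Phgdh followed at 194.9 ± 19.5, Psat1 at 168.2 ± 13.8 and Asns at 133.5 ± 12.8 CPM per kb. Phgdh and Psat1 catalyse steps of serine synthesis and Asns makes asparagine, so by this measure 3 enzymes of amino acid supply came next after Atf4. The lengths pool all annotated exons of a gene, and those of Atf4 cover its whole span, so the order depends on the annotation. In CPM without lengths, Psat1 (mean 715.3 over the 12 libraries) was above Atf4 (532.7). Atf5 was at 55.3 ± 6.39 and Mthfd2 at 43.9 ± 4.27 CPM per kb. Trib3 followed at 15.2 ± 6.14, Ddit3 at 13.7 ± 1.38, Sesn2 at 10.1 ± 1.38 and Chac1 at 9.12 ± 4.01 CPM per kb. In this order each gene was above the next in 12 of 12 libraries, with 2 exceptions. Trib3 was above Ddit3 in 8 of 12 libraries and Sesn2 was above Chac1 in 5 of 12, and both orders went with the label suffix. Trib3 was above Ddit3 in every library with suffix a and below it in every library with suffix b. Sesn2 was above Chac1 in every library with suffix b and mostly below it with suffix a. Positions of genes are given from the count table, on build GRCm38. Exon bases shared with another gene were left out of the lengths, since the kit did not mark strand. They made up 10.9% of the exon bases of Ddit3 (part of them antisense to Mars) and 4.1% of those of Atf5 (antisense to Nup62 and Il4i1), and 0% for the other 8 genes.

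**Figure D1:**
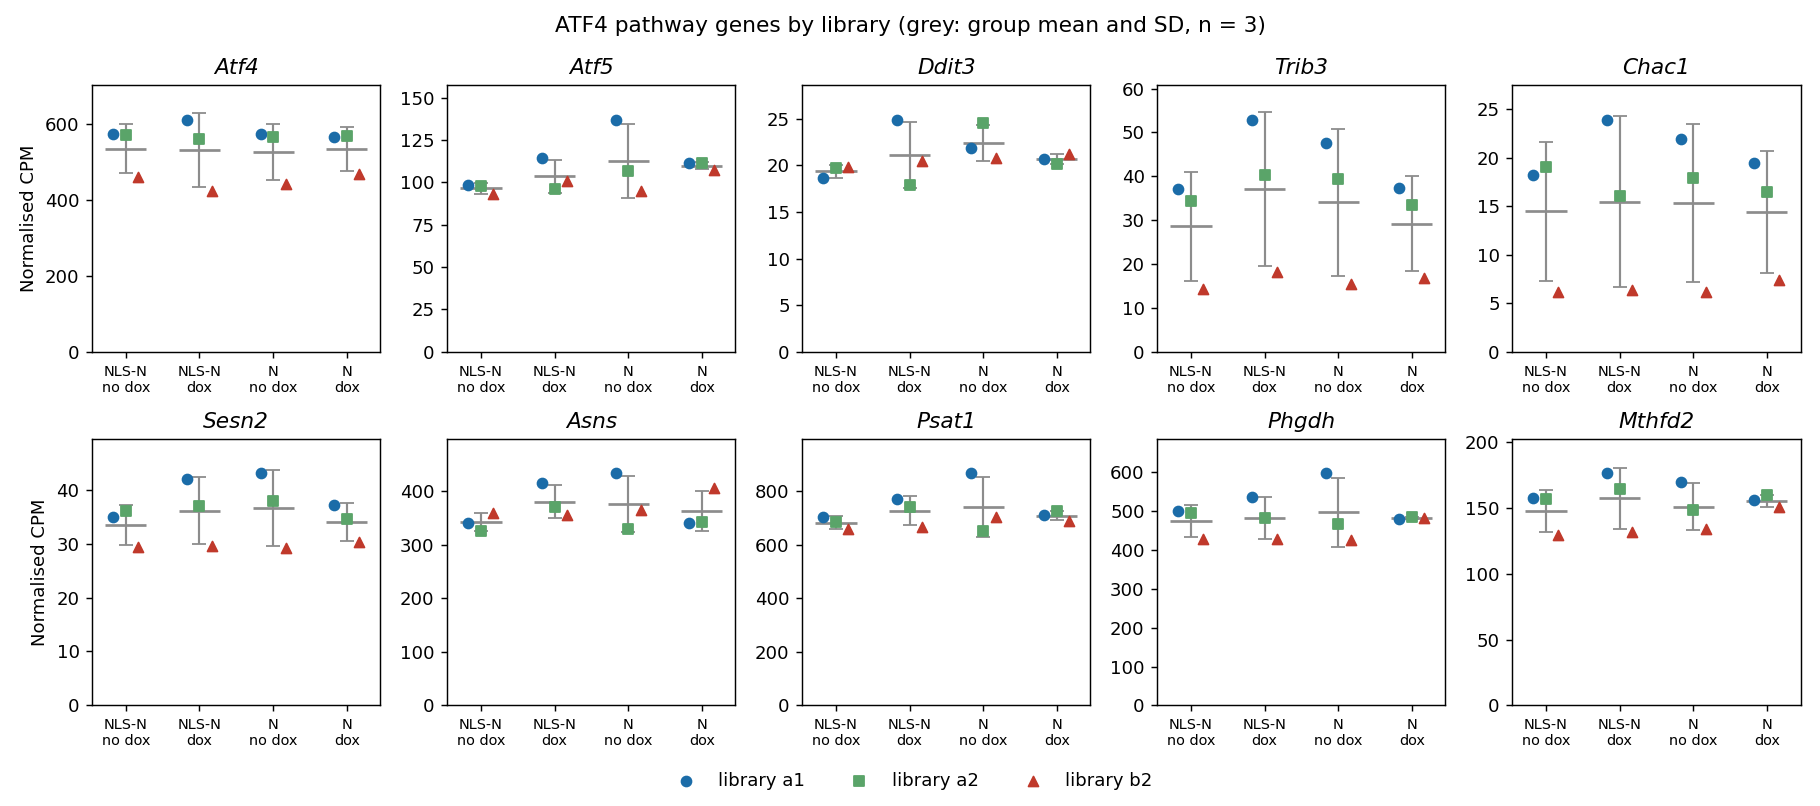
Normalised CPM (vertical axes, from 0) of the 10 genes in the 4 groups, with 1 symbol per library and the group mean ± SD (n = 3) in grey. Trib3, Chac1, Sesn2 and Atf4 were lower in the b2 library of every group than in all libraries of suffix a.

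The first question was whether dox, and with it the induced protein, moved these genes in either population. None of the 10 genes was called. In bulk RNA, fewer cells of a kind and less RNA per cell cannot be told apart. In NLS-N-VEGF fibroblasts 0 of 10 genes passed an adjusted p of 0.05 (edgeR quasi-likelihood test), against 3 of 13608 genes in all (0.0220%). In N-VEGF fibroblasts 0 of 10 passed, against 5 genes in all (0.0367%). Over both populations 0 of 10 passed, against 8 genes in all (0.0588%), and for the difference between the dox effects 0 of 10 passed, against 0 genes in all. In each of these comparisons 0 of the 10 genes had an unadjusted p under 0.05 in edgeR, and the DESeq2 Wald test also gave 0 at either threshold. Of all genes tested, 2.34%, 1.48%, 3.11% and 0.852% had an unadjusted p under 0.05 in edgeR, in the same order. Beside these shares, 0 of 10 does not set the genes apart. With the replicate label as a block, 17 genes (0.125%) were called in NLS-N-VEGF fibroblasts, 15 (0.110%) in N-VEGF fibroblasts and 77 (0.566%) over both, and still 0 of the 10.

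Atf4 (ENSMUSG00000042406, chromosome 15, 80255184 to 80257541, plus strand), the central transcription factor, was measured at 575.0, 570.8 and 462.0 CPM in NLS-N-VEGF fibroblasts without dox, in the order a1, a2 and b2. With dox it was at 611.8, 560.1 and 424.8 CPM in the same order. In N-VEGF fibroblasts it was at 575.1, 566.1 and 442.9 CPM without dox and at 566.9, 569.0 and 468.3 CPM with dox. The groups overlapped, and within each the b2 library was the low one. The dox estimate for Atf4 was -0.01 (SE 0.15) on the log2 scale in NLS-N-VEGF fibroblasts and 0.02 (SE 0.15) in N-VEGF fibroblasts, both with an adjusted p of 1 (edgeR). With the block the SE fell to 0.07 in each population, and the estimates were -0.02 and 0.02.

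Ddit3 (ENSMUSG00000025408, chromosome 10, 127290774 to 127296288, plus strand) encodes CHOP, the factor that links a lasting stress response to cell death. It was at 18.6, 19.7 and 19.8 CPM in NLS-N-VEGF fibroblasts without dox and at 24.9, 17.9 and 20.5 CPM with dox. The N-VEGF fibroblasts gave 21.9, 24.6 and 20.8 CPM when not given dox and 20.7, 20.2 and 21.2 CPM with it. Among the 3 pairs of NLS-N-VEGF fibroblasts the log2 ratio with dox was 0.42, -0.14 and 0.05, so 1 pair was higher with dox, 1 was lower and 1 was near 0. The fitted change was 0.13 (SE 0.12) in NLS-N-VEGF fibroblasts, and -0.01 without library a1 of the dox group. In N-VEGF fibroblasts it was -0.12 (SE 0.12).

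Between the populations without dox, the 3 Ddit3 values of NLS-N-VEGF fibroblasts lay below the 3 of N-VEGF fibroblasts, with a log2 fold change of -0.21 (SE 0.12) and an adjusted p of 1 (edgeR). Of the comparisons between 2 groups, this was the only case among the 10 genes in which groups of 3 did not overlap, and 3.25% of all genes tested did not overlap there. Atf5 (ENSMUSG00000038539, chromosome 7, 44812256 to 44816658, minus strand), a factor that is translated under stress in the same manner as Atf4, was at 98.5, 98.1 and 92.9 CPM in NLS-N-VEGF fibroblasts without dox. In N-VEGF fibroblasts without dox it was at 136.9, 106.8 and 94.6 CPM, and its highest value was in the library that stood apart. The log2 fold change was -0.22 (SE 0.12) with that library and -0.06 (SE 0.09) without it. With dox, Atf5 was at 114.5, 95.8 and 100.5 CPM in NLS-N-VEGF fibroblasts and at 111.3, 111.1 and 107.3 CPM in N-VEGF fibroblasts. The groups overlapped in each comparison of dox and of populations for Atf5, and its dox estimates were 0.10 (SE 0.12) and -0.04 (SE 0.12), the second of which was 0.13 (SE 0.09) without the library that stood apart, or 0.09 (SE 0.07) with the block as well.

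Trib3 gave the largest dox effect of the 10 genes. The gene (ENSMUSG00000032715, chromosome 2, 152337422 to 152344032, minus strand) encodes a pseudokinase that ATF4 and CHOP induce and that restrains ATF4 in return. In NLS-N-VEGF fibroblasts it was at 37.1, 34.3 and 14.4 CPM without dox and at 52.9, 40.4 and 18.3 CPM with dox. Each pair was higher with dox, with log2 ratios of 0.51, 0.24 and 0.35, although the groups overlapped, with the b2 library the lowest in both. In N-VEGF fibroblasts it was at 47.7, 39.3 and 15.4 CPM without dox and at 37.3, 33.5 and 16.9 CPM with dox. Here the ratios were -0.35, -0.23 and 0.13, so 2 pairs were below 0 and 1 was above.

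The fitted log2 fold change of Trib3 was 0.38 (SE 0.48) in NLS-N-VEGF fibroblasts and -0.22 (SE 0.48) in N-VEGF fibroblasts. With the replicate block the first was 0.37 with an SE of 0.09 and an adjusted p of 0.206 (edgeR), so the block narrowed the error and the call was still missed. The difference between the populations' dox effects was 0.60 (SE 0.68), or 0.55 (SE 0.13) with the block, with an adjusted p of 1 in both. In the libraries of suffix a alone the difference was 0.70 (SE 0.19, unadjusted p = 0.00449, adjusted p = 0.594, edgeR) for Trib3. Asns and Sesn2 also had an unadjusted p under 0.05 there (adjusted p = 0.759 for both, edgeR), as did 6.57% of all genes tested. With the block and all libraries the difference was 0.20 for Asns and 0.20 for Sesn2. Without the library that stood apart, the blocked difference was 0.51 for Trib3, 0.1 for Asns and 0.16 for Sesn2. With the block 1 of the 10 genes, Trib3, had an unadjusted p under 0.05 for the effect in NLS-N-VEGF fibroblasts, for the difference of effects and for NLS-N-VEGF against N-VEGF with dox. Of all genes tested, 7.27%, 3.41% and 4.56% did so, in the same order. Leaving out each library in turn under the block moved the estimate in NLS-N-VEGF fibroblasts between 0.30 and 0.42, with the lowest adjusted p, 0.0583, without the library that stood apart.

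Chac1 and Sesn2 were the other feedback and redox genes. Chac1 (ENSMUSG00000027313, chromosome 2, 119351229 to 119354381, plus strand), which breaks down glutathione, was at 18.2, 19.0 and 6.21 CPM in NLS-N-VEGF fibroblasts without dox and at 23.9, 16.1 and 6.39 CPM with dox. In N-VEGF fibroblasts it was at 21.9, 17.9 and 6.18 CPM without dox and at 19.4, 16.5 and 7.37 CPM with dox. The pairs went in both directions in each population, and the fitted changes were 0.09 (SE 0.56) and -0.08 (SE 0.56). Sesn2 (ENSMUSG00000028893, chromosome 4, 132492032 to 132510501, minus strand), a leucine sensor that restrains mTORC1 (Sestrin 2), was at 34.9, 36.1 and 29.3 CPM without dox and at 41.9, 36.9 and 29.5 CPM with dox in NLS-N-VEGF fibroblasts. Its values in N-VEGF fibroblasts were 43.0, 37.9 and 29.1 CPM in the cells not given dox and 37.2, 34.6 and 30.2 CPM with it. The fitted estimates for Sesn2 were 0.11 (SE 0.16) and -0.11 (SE 0.16) on the log2 scale, neither past the test. With the block the second was -0.10 (SE 0.08), or -0.05 (SE 0.08) without the library that stood apart.

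Asns (ENSMUSG00000029752, chromosome 6, 7675169 to 7693254, minus strand), which makes asparagine from aspartate and is a classical target of ATF4, was at 340.3, 325.6 and 359.4 CPM in NLS-N-VEGF fibroblasts without dox and at 414.9, 370.8 and 354.9 CPM with dox. For N-VEGF fibroblasts the values were 432.8, 328.3 and 365.4 CPM in the cells not given dox and 340.8, 342.1 and 406.1 CPM with it. The ranges overlapped, and the highest value of all was again in the library that stood apart. The fitted change was 0.15 (SE 0.11) in NLS-N-VEGF fibroblasts and -0.05 (SE 0.11) in N-VEGF fibroblasts, and the latter was 0.07 (SE 0.10) without that library.

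Psat1 (ENSMUSG00000024640, chromosome 19, 15904678 to 15947337, minus strand) and Phgdh (ENSMUSG00000053398, chromosome 3, 98313170 to 98339990, minus strand) catalyse serine synthesis. Mthfd2 (ENSMUSG00000005667, chromosome 6, 83305691 to 83325908, minus strand) is a mitochondrial enzyme of the folate cycle. The 3 genes differed little between the groups. Over all 12 libraries Psat1 lay between 653.0 and 867.2 CPM, Phgdh between 426.8 and 597.7 CPM and Mthfd2 between 129.4 and 176.3 CPM. The pair ratios with dox of Psat1 were 0.13, 0.12 and 0.02 in NLS-N-VEGF fibroblasts and -0.28, 0.15 and -0.03 in N-VEGF fibroblasts. Those of Phgdh were 0.10, -0.04 and -0.00 in NLS-N-VEGF fibroblasts and -0.31, 0.05 and 0.18 in N-VEGF fibroblasts. Those of Mthfd2 were 0.16, 0.07 and 0.02 in NLS-N-VEGF fibroblasts and -0.12, 0.10 and 0.16 in N-VEGF fibroblasts. The fitted dox effects of the 3 genes lay between -0.06 and 0.09, with SEs of 0.10 to 0.13. In N-VEGF fibroblasts the blocked estimates were -0.06 for Psat1, -0.03 for Phgdh and 0.05 for Mthfd2. Without the library that stood apart the blocked estimates there were 0.04, 0.07 and 0.09, in the same order. As for Trib3 and Sesn2, all 3 pairs of NLS-N-VEGF fibroblasts were above 0 for Psat1 and Mthfd2, and the groups overlapped.

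Read over the genes, the pairs did not move alike. Libraries a1 and a2 are matched here by their label number, and their values do not show that this number pairs them. In pair a1, 10 of 10 genes were higher with dox in NLS-N-VEGF fibroblasts, with a median log2 ratio of 0.24, and 0 of 10 were higher with dox in N-VEGF fibroblasts, with a median of -0.25. In pair a2, 5 of 10 were higher in NLS-N-VEGF fibroblasts and 6 of 10 in N-VEGF fibroblasts, with medians of 0.00 and 0.03. In pair b2, 7 of 10 and 9 of 10 were higher, with medians of 0.02 and 0.14. Opposite directions of all 10 genes in the 2 populations were seen in pair a1 and in neither other pair.

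Just 2 libraries held the highest value of every gene. Library a1 of the NLS-N-VEGF fibroblasts with dox held it for Atf4, Ddit3, Trib3, Chac1 and Mthfd2, and library a1 of the N-VEGF fibroblasts without dox, the one that stood apart, held it for Atf5, Sesn2, Asns, Psat1 and Phgdh. In the fit of all libraries 2 of 10 genes had an estimate above 0 with dox in N-VEGF fibroblasts (range -0.22 to 0.04). Without the library that stood apart 9 of 10 did (range -0.14 to 0.27), or 6 of 10 with the block (range -0.17 to 0.09). The count for NLS-N-VEGF fibroblasts was 9 of 10 with all libraries (range -0.01 to 0.38) and 4 of 10 without their library a1 with dox (range -0.38 to 0.09), or 6 of 10 with the block (range -0.07 to 0.30). In both fits without the block, the group that lost a library holds 1 library of each suffix while the other groups hold 2 and 1, and the difference by suffix enters those estimates.

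**Figure D2:**
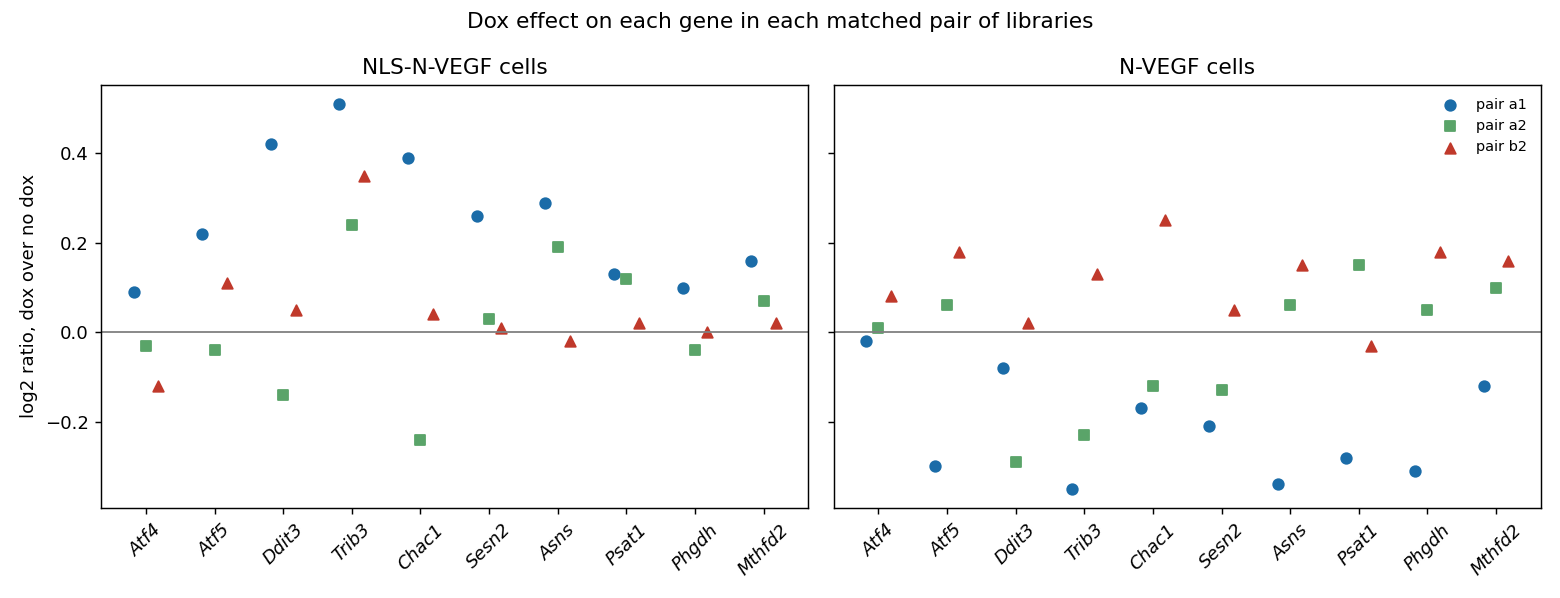
The log2 ratio of normalised CPM with dox over without dox (vertical axis) for each gene in each pair of libraries with the same label, in NLS-N-VEGF fibroblasts (left) and N-VEGF fibroblasts (right). Pair a1 is above 0 for 10 of 10 genes on the left and below 0 for 10 of 10 on the right, and Trib3 is above 0 in 3 of 3 pairs on the left.

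The second question was whether the populations differed. With dox, 0 of 10 genes passed between NLS-N-VEGF and N-VEGF fibroblasts, and 0 genes in all (0%), or 2 (0.0147%) with the block. Without dox, 0 of 10 passed and 0 genes in all (0%), with and without the block. In edgeR and in DESeq2 0 of 10 had an unadjusted p under 0.05 in either comparison. Of all genes tested, 1.18% with dox and 0.603% without dox did so in edgeR. With the block Trib3 did so with dox (log2 fold change 0.32, SE 0.09, adjusted p = 0.928, edgeR), beside 4.56% of all genes. Trib3 and Atf5 did so without dox (-0.23 and -0.21, adjusted p = 0.939 for both, edgeR), beside 3.67%. Without the library that stood apart, the blocked values without dox were -0.18 (SE 0.10) for Trib3 and -0.09 (SE 0.07) for Atf5. In the pairs, Trib3 was higher in NLS-N-VEGF fibroblasts in 3 of 3 with dox and lower in 3 of 3 without dox. The remaining estimates with dox lay between -0.09 and 0.10.

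The large differences among these genes followed the suffix of the library labels. In a fit with the group and the suffix, 6 of 10 genes were lower in the 4 libraries with suffix b than in the 8 with suffix a, against 23.5% of all genes tested, and 0 of 10 were higher, against 22.2%. The suffix separated a large share of the whole transcriptome, so a call alone sets a gene apart little. The size of the change did so for Chac1 and Trib3: 0.382% and 0.617% of all genes had a lower log2 fold change than these.

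Chac1 ranged from 16.1 to 23.9 CPM (median 18.6) in the 8 libraries with suffix a and from 6.18 to 7.37 CPM (median 6.30) in the 4 with suffix b. The log2 fold change was -1.55 (SE 0.12, adjusted p = 1.4e-07, edgeR). Trib3 ranged from 33.5 to 52.9 CPM (median 38.3) with suffix a and from 14.4 to 18.3 CPM (median 16.1) with suffix b, a log2 fold change of -1.31 (SE 0.09, adjusted p = 5.5e-08). Neither pair of ranges overlapped, and the mean was 2.93 times higher with suffix a for Chac1 and 2.48 times higher for Trib3. By group, the drop of Trib3 on the log2 scale was -1.31 in NLS-N-VEGF fibroblasts without dox, -1.34 with dox, -1.49 in N-VEGF fibroblasts without dox and -1.07 with dox.

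Atf4 ranged from 560.1 to 611.8 CPM (median 569.9) with suffix a and from 424.8 to 468.3 CPM (median 452.5) with suffix b. Its log2 fold change was -0.35 (SE 0.05, adjusted p = 5.3e-05, edgeR), a mean 1.28 times higher with suffix a. Sesn2 ranged from 34.6 to 43.0 CPM and from 29.1 to 30.2 CPM, with a log2 fold change of -0.36 (SE 0.06, adjusted p = 3.2e-04). For Atf4, Trib3, Chac1 and Sesn2 the ranges of the 4 and the 8 libraries did not overlap, 4 of 10 genes against 14.9% of all genes tested.

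Of the enzymes, Mthfd2 fell by 0.24 on the log2 scale (SE 0.06, adjusted p = 0.00289, edgeR), and its b2 library was below both others in 4 of 4 groups, although the ranges over all groups overlapped. Phgdh fell by 0.20 (SE 0.07, adjusted p = 0.0289), a call that was lost in 5 of the 12 fits that left out 1 library. These were the fits without NLS-N-VEGF no-dox a1 (adjusted p = 0.0507) or b2 (0.0782), NLS-N-VEGF dox a1 (0.0582) or b2 (0.0876), or N-VEGF no-dox b2 (0.117). Psat1 and Asns, with log2 fold changes of -0.11 (SE 0.07, adjusted p = 0.201) and 0.04 (SE 0.08, adjusted p = 0.676), did not pass.

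Neither did 2 of the 3 transcription factors. Atf5 had a log2 fold change of -0.14 (SE 0.07, adjusted p = 0.126), and Ddit3 of -0.04 (SE 0.08, adjusted p = 0.744). Ddit3 ranged from 17.9 to 24.9 CPM with suffix a and from 19.8 to 21.2 CPM with suffix b, so the whole of the second range lay within the first. Asns likewise ranged from 325.6 to 432.8 CPM and from 354.9 to 406.1 CPM.

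**Figure D3:**
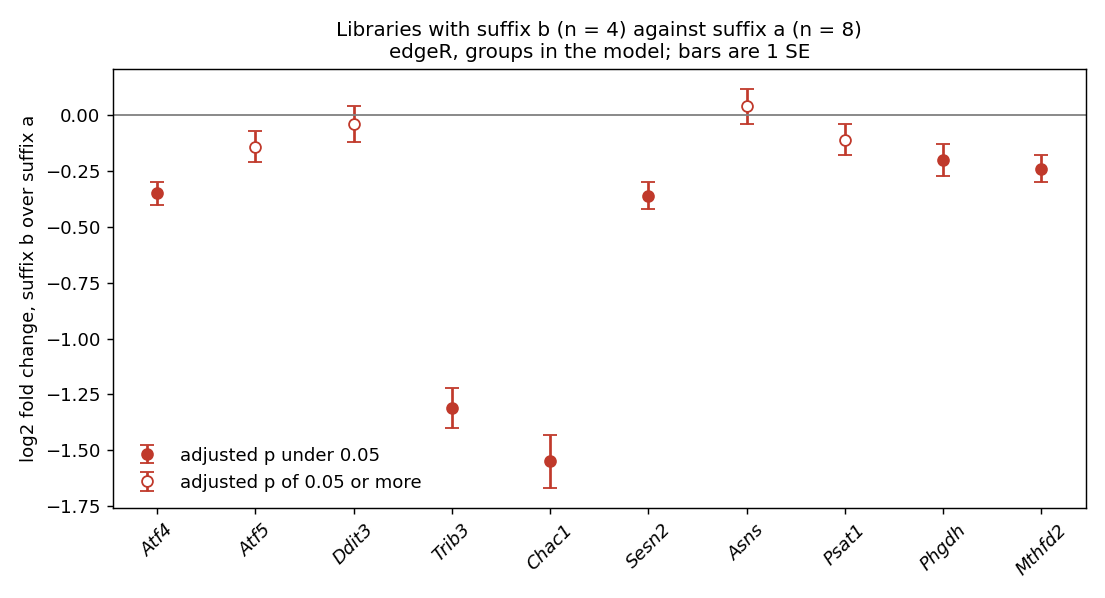
The log2 fold change (vertical axis) of each gene in the 4 libraries with suffix b over the 8 with suffix a, with 1 SE, from the edgeR fit with groups in the model. Filled points passed an adjusted p of 0.05, and Chac1 (-1.55) and Trib3 (-1.31) lie far below the other 8 genes, which range from -0.36 to 0.04.

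Without the library that stood apart the same 6 genes were called, with Chac1 at -1.52 and Trib3 at -1.28. The dox effect did not differ by suffix past the test for any of the 10 genes in edgeR (0 of 10, 0 genes in all, and 0 of 10 at an unadjusted p under 0.05), nor in DESeq2, which gave the same counts for the 10. Of all genes tested, 6.81% had an unadjusted p under 0.05 for this difference in edgeR. Other measures were read by suffix. The summed level of the 15 markers of other cell types was 6.62 to 9.50 CPM with suffix a and 10.1 to 11.5 CPM with suffix b, with Myod1 at 0 in all libraries, and that of the 14 fibroblast markers was 12325 to 15475 and 12606 to 14388 CPM. The mitochondrial share was 3.92 to 6.17% and 4.56 to 5.38%. The construct insert in the libraries with dox was at 2.57 to 8.08 CPM with suffix a and at 10.2 and 17.9 CPM with suffix b. The markers of other cell types in all libraries and the insert in those with dox did not overlap between the suffixes, and the summed fibroblast markers and the mitochondrial share did. Of all genes tested, 13.1% were higher with suffix b without overlap. Of the 15 markers of other cell types 4 were tested, and 1 was called higher and 0 lower. Of the 14 fibroblast markers, 6 were called lower and 4 higher with suffix b, with a median log2 fold change of -0.19. The shares of all genes were 23.5% lower and 22.2% higher. The part of these measures in the result was not tested.

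Other genes of the pathway were read from lists. Of 40 other ATF4 targets, 37 were tested, and 26 were lower and 2 higher with suffix b, beside 23.5% and 22.2% of all genes. The median log2 fold change was -0.25, beside 0.01 over all genes. Ddit4, an inhibitor of mTORC1, ranged from 67.2 to 94.6 CPM with suffix a and from 29.3 to 43.2 CPM with suffix b (log2 fold change -1.09, SE 0.07). Aldh1l2, a mitochondrial folate enzyme, fell from a median of 175.0 to 81.3 CPM (-1.06, SE 0.07), and the low Atf3, a stress-induced repressor, from 1.57 to 0.476 CPM (-1.61, SE 0.24). Slc7a3, a transporter of cationic amino acids, went the other way, from a median of 6.17 to 15.4 CPM (1.43, SE 0.15).

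Among 18 enzymes of serine, glycine, proline and folate metabolism, 16 were tested, and 6 were lower and 4 higher with suffix b, with a median of 0.02. Beside the 23.5% and 22.2% of all genes, the share of higher calls was near the background. Pycr1, the last step of proline synthesis, fell from a median of 22.7 to 12.3 CPM (log2 fold change -0.94, SE 0.09), Psph, the last step of serine synthesis, from 62.9 to 44.5 CPM (-0.52, SE 0.06) and Aldh18a1, the first step of proline synthesis, from 215.2 to 160.4 CPM (-0.43, SE 0.06). Amt, of glycine cleavage, rose from 2.37 to 3.68 CPM (0.71, SE 0.17).

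Of 21 eIF2 kinases and subunits of eIF2, eIF2B and the eIF2 phosphatases, 20 were tested, with 5 lower and 3 higher and a median of -0.06. Beside 23.5% and 22.2% of all genes, these counts do not set the list apart. Eif2ak3, the kinase PERK of the endoplasmic reticulum, had a log2 fold change of -0.31 (SE 0.08), and Eif2b3, a subunit of the exchange factor, of 0.27 (SE 0.06). Of 18 genes of the ATF6 and XBP1 arms of the unfolded protein response, 18 were tested, with 5 lower and 5 higher and a median of -0.01, which is also near the shares of all genes. Herpud1 (-0.58, SE 0.06) and Xbp1 (-0.55, SE 0.07) were lower, while the chaperones Calr (0.41, SE 0.07) and Hsp90b1 (0.21, SE 0.06) were higher. Strand was not marked, and 14.1%, 10.4%, 10.3% and 8.0% of the exon bases of Aldh1l2, Psph, Hsp90b1 and Eif2ak3 lie antisense to another gene. The strand option of the counting was not given, so these counts may hold reads of the other gene or lack reads from the shared bases. In the comparisons of dox and of populations, 0 genes of these 4 lists passed in edgeR, with and without the block.

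Because most of the 10 genes differed by suffix, their joint variation was read within the 8 libraries with suffix a (log2 CPM). Over the 8 libraries all 45 pairs of genes had a Pearson r above 0, with a median of 0.69 and a range of 0.06 to 0.93, against a median of 0.06 between the 10 genes and 9943 other genes whose mean reached 5 CPM. How far this held depended on which libraries were left out. Without the library that stood apart the median of the 45 was 0.64 and 1 pair was below 0 (-0.10). Without the 2 libraries farthest from the median of the first gene of each pair, 12 of 45 were below 0, with a median of 0.41 and a range of -0.73 to 0.92. This cut narrows the range of the first gene, which by itself can lower r, and the median of 0.06 was not recomputed for it. The 8 libraries share 4 groups, and 2 of them held the highest values of all 10 genes. In an exact permutation test (two-sided, 40320 permutations), 19 pairs had an unadjusted p under 0.05, and 2 passed after adjustment over the 45 pairs, or 1 by Spearman's rho.

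Those were pairs of enzymes with Asns. Asns and Psat1 had r = 0.93 (exact permutation p = 0.000174, adjusted p = 0.00781) and rho = 0.98 (exact permutation p = 0.000397, adjusted p = 0.0179), and r was 0.83 without the 2 libraries farthest from the median of Asns. Asns and Mthfd2 had r = 0.91 (exact permutation p = 0.00179, adjusted p = 0.0402) and rho = 0.86 (exact permutation p = 0.0107, adjusted p = 0.0964), and r was 0.81 without the 2 farthest libraries. Trib3 and Sesn2, with r = 0.92, rho = 0.88 and adjusted exact permutation p-values of 0.0554 and 0.0815, did not pass. Others fell further in this cut, as for Asns and Phgdh, where r was 0.87 with all 8 libraries and 0.01 without the 2 farthest. Without the library that stood apart r was 0.75 for Asns and Phgdh.

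**Figure D4:**
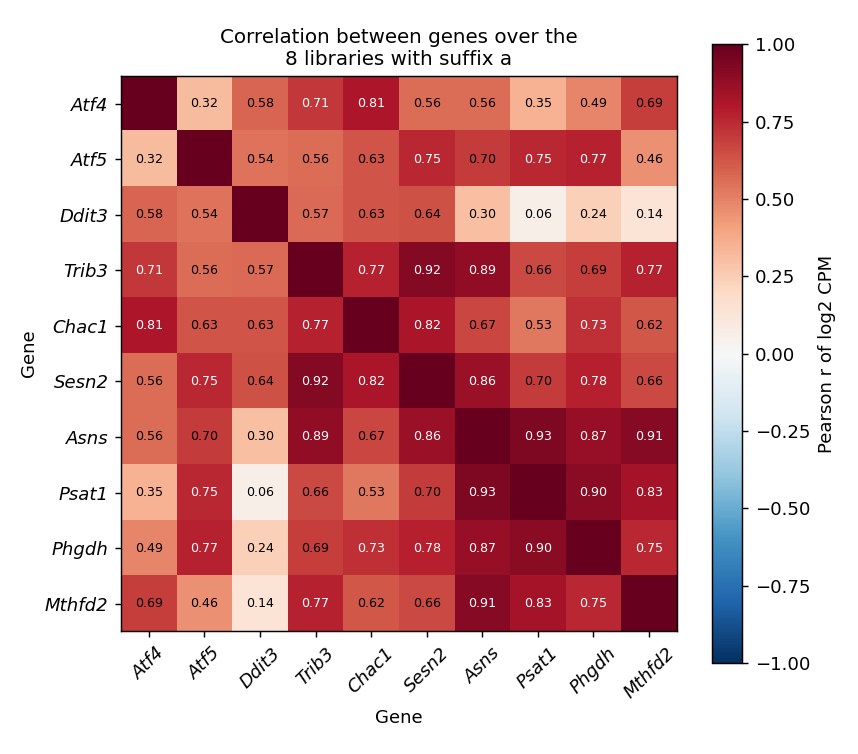
Pearson r of log2 CPM between each pair of the 10 genes (both axes) over the 8 libraries with suffix a, with the colour scale from -1 to 1. All 45 values are above 0, from 0.06 to 0.93, although 12 fall below 0 without the 2 farthest libraries, and the 2 pairs past the adjusted exact test are Asns with Psat1 and Asns with Mthfd2.

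By the same measure, over 8 libraries and 9953 genes whose mean reached 5 CPM, the genes outside the set of 10 most like Atf4 were Dpy30 (r = 0.97), Rnf19b (0.95) and App (0.95). Those most like Ddit3 were Klc2 (0.96), Akirin2 (0.94) and Pbxip1 (0.92), and those most like Asns were Rhoa (0.98), Ak1 (0.97) and Pfdn6 (0.97). These values are a description of 8 libraries.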

How the data were processed

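The study prepared the 12 libraries from total RNA with a TruSeq v2 kit, which does not mark strand, and sequenced them. The submitters' processing notes name Trim Galore with cutadapt 1.10, TopHat2 2.1.0 with Bowtie2 2.2.6 on build GRCm38 and HTSeq 0.6.1. The authors deposited unnormalised read counts of genes, and the strand option was not given in the sources used here. Groups, numbers and suffixes came from the labels.

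Counts were tested with edgeR 4.0.16 in R 4.3.3 (filterByExpr, TMM scaling, quasi-likelihood F test, 12 libraries, 1 mean per group, two-sided, Benjamini-Hochberg over 13608 genes). DESeq2 1.42.0 was an alternative. SEs were derived from the F statistic, and CPM used the TMM-scaled totals. Libraries of different groups with the same label deviated together from their group means in 18 of 18 pairs (r from 0.37 to 0.82, 12058 genes), so the label was used as a block, and blocked values are given where they matter. Within suffix a, however, pairs with the same number (r from 0.37 to 0.65, median 0.48) and with different numbers (0.16 to 0.65, median 0.49) were alike, and pairs of different suffix had r from -0.74 to -0.35. What is shared is thus the suffix, and a pairing of a1 with a1 and of a2 with a2 rests on the label alone. Like the p-values, the SEs reflect the spread between these libraries, which are not known to come from separate cultures. The CPM range given for a low count converts that count by the library totals and holds no measure of spread.

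The 10 genes and all lists were chosen with earlier results of these data known. From other lists, up to 3 called genes per direction with a mean of at least 1 CPM could be named, by size of change. The script for the tests was tested on simulated data. Exon lengths came from GENCODE release M21 and promoters from RefSeq.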

Additional observations from a re-analysis of the deposited data

Results flagged for a closer look

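In 20 sets of values (10 genes, each over the 8 libraries with suffix a and the 4 with suffix b), the extreme library lay farther from its neighbour than Dixon's 95% limit in 3, where chance gives about 1 in 20. These libraries span 4 groups, so a group can be part of the distance. Atf4 was at 611.8 CPM in library a1 of the NLS-N-VEGF fibroblasts with dox, against 575.1 CPM in the next library. Atf5 was at 136.9 CPM in library a1 of the N-VEGF fibroblasts without dox, the library that stood apart over all genes, against 114.5 CPM in the next. Phgdh was at 482.2 CPM in library b2 of the N-VEGF fibroblasts with dox, against 428.9 CPM in the next. For the difference between populations in the dox effect, 0 of the 10 genes passed the adjusted p in edgeR, with or without the block, or in DESeq2.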

How the results depend on the processing

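In the comparisons of dox and of populations, 0 of the 10 genes were called under every setting that was run: DESeq2, RLE scaling, other filters, the suffix in the model, suffix a alone, the 2 groups alone, the replicate block (paired labels), and leaving out each library with or without the block, the last chosen after seeing the data. The mean dox effect and the difference of dox effects need all 4 groups, so they had no fit of 2 groups alone. For the difference of dox effects between suffixes, 0 were called with DESeq2, RLE scaling, both other filters and each library left out, which were the settings run there. The block changed no call of the 10 genes. For the suffix, 6 genes were called, 5 to 7 when each library was left out and 6 to 7 under the other settings. Phgdh was the call lost, and Atf5 (no filter, adjusted p = 0.0405) and Psat1 (without library a2 of N-VEGF fibroblasts without dox, adjusted p = 0.0365) were the calls gained, and the cause was not tested. Of 2220 fold changes of single genes under alternatives, 2186 held their call and moved by less than 1 SE where uncalled. A further 27 uncalled ones moved by more, and none that was called changed its sign. The SE was that of the main fit, and an uncalled change that reversed its sign within it counted as held. The count therefore says little about how steady the uncalled estimates were. The SE of the dox effect was 0.48 for Trib3 and 0.56 for Chac1 without the block, and 0.09 and 0.12 with it, which limits how small a change could be seen.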
